A study of Rattus norvegicus with 9 samples.

Results

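The sarcomeric myosin heavy chain genes were followed across 3 ages, 6, 18 and 30 months, in a laryngeal muscle of the rat, the posterior cricoarytenoid. Their members are all probe sets whose platform annotation gives *Myh2*, *Myh4*, *Myh7*, *Myh8*, *Myh13*, *Myh3*, *Myh6* or *Myh1* as the only gene symbol. This gave 15 of 8740 probe sets, for 8 of 4736 genes. *Myh3* had 5 probe sets, *Myh6* 3, *Myh7* 2 and each of the other genes 1. The series holds 9 Affymetrix Rat Genome U34 arrays, 3 for each age, hybridised with pools of RNA from 4 animals apiece. Age is the only difference that the labels name between the groups, and the sources used here give neither strain nor sex. The 6-month muscle serves as the baseline, and all errors reflect how pools of the same age varied, not single animals.

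A myosin heavy chain is the motor of the thick filament: it binds actin, splits ATP and largely sets how fast a muscle fibre shortens. Adult limb muscle of the rat uses a slow chain (*Myh7*) and the fast chains 2A (*Myh2*), 2X (*Myh1*) and 2B (*Myh4*), whereas *Myh3* and *Myh8* are the embryonic and perinatal chains, *Myh6* is the α chain of the heart, and *Myh13* is the extraocular chain, which is also found in laryngeal muscle. The posterior cricoarytenoid opens the vocal folds at each breath.

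The genes lie in clusters. In the rat assembly GRCr8, *Myh3*, *Myh2*, *Myh1*, *Myh4*, *Myh8* and *Myh13* follow each other within 298.8 kb at chr10:52269185-52567951, and *Myh6* and *Myh7* adjoin within 51.75 kb at chr15:32388102-32439851. All 8 symbols were matched to this RefSeq assembly, 7 of them with the same gene ID. The windows around the annotated starts of the adult fast genes are shown because these neighbouring genes carry the fast signals compared first. Each window runs from 250 bases before to 50 bases after the start that the RefSeq promoter table uses, which for *Myh1* lies downstream of the first base of the gene's annotated span, on the plus strand of GRCr8, at chr10:52355489-52355788 for *Myh2*, chr10:52384662-52384961 for *Myh1* and chr10:52421898-52422197 for *Myh4*. Capitals mark the longest run of bases that the 3 windows share, picked after the sequences were seen, followed by a TATAAA run.
Myh2: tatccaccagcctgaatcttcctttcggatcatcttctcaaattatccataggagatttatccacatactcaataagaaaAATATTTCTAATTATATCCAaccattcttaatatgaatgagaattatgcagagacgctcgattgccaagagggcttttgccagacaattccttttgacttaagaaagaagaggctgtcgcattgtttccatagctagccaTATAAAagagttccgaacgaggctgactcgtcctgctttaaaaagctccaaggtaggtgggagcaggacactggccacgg
Myh1: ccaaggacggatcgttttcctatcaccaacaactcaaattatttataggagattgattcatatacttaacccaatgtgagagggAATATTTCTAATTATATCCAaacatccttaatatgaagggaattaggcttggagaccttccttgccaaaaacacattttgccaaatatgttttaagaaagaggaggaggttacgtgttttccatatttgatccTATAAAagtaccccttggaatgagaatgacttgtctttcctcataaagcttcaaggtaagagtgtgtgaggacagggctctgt
Myh4: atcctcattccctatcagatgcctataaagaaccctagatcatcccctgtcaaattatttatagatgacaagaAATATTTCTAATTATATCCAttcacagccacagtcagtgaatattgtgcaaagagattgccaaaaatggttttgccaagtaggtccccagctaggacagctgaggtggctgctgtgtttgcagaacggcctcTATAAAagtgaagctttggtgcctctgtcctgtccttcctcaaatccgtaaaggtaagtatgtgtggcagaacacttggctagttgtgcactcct
The shared run is 20 bases long and begins 170 bases before that start in *Myh2*, 166 before it in *Myh1* and 177 before it in *Myh4*. The TATAAA in capitals begins 30, 33 and 45 bases before these starts. On either strand, the shared run was found in 5 of 33469 windows in the table (0.0149%), which were these 3 and 2 windows of LOC102555216 that overlap the *Myh4* window. The windows of *Myh7*, *Myh6*, *Myh3*, *Myh8* and *Myh13* did not hold it. Those of *Myh7* (chr15:32438145-32438444) and *Myh6* (chr15:32411648-32411947), on the minus strand, lie wholly inside the annotated spans of these genes. They therefore do not cover the bases before the first base of those spans, for this run or for the motifs that follow. TATAAA was found on either strand in 14.2% of all windows and in those of *Myh2*, *Myh1*, *Myh4* and *Myh3*. The MCAT motif, CATTCC, was found in 14.2% of all windows and in those of *Myh4*, *Myh6* and *Myh1*. The E-box, CANNTG, was found in 72.1% of all windows and in 5 of the 8 (*Myh4*, *Myh7*, *Myh13*, *Myh3* and *Myh6*). Each motif was counted without regard to the others, and a match is a description of letters only.

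Of the member probe sets, 14 of 15 passed a filter that kept the upper 60% of probe sets by mean log2(signal + 32), a cutoff of 6.60. The probe set just below it was K03467_s_at of *Myh3*, at 6.59, and the lowest one above it was L00370cds_s_at of *Myh3*, at 6.70. Markers of skeletal muscle were strong, with 12 of 12 markers that were found by symbol above the filter. The fast regulatory light chain gene, annotated as *Myl11*, was listed under another symbol and so was not among them. Most lists for other cell types also had markers above it: 8 of 8 for fibroblasts, 7 of 8 for smooth muscle and endothelium, 6 of 8 for adipocytes, 6 of 8 for nerve and Schwann cells, 5 of 7 for thyroid and parathyroid, 4 of 7 for immune cells, 6 of 13 for mucosal epithelium and glands, and 2 of 2 for blood. None of 5 cartilage markers (*Col2a1*, *Acan*, *Comp*, *Col9a1* and *Col11a1*) passed it. The summed signal of those 12 muscle markers, some of which recur in the related lists described further on, was 224842 to 260219 at 18 months and 227428 to 248520 at 30 months, against 190904 to 218240 at 6 months. The summed signal of 8 fibroblast markers was 12405 to 13544 at 18 months and 13825 to 14046 at 30 months, against 17035 to 21517 at 6 months. The largest part of that sum was *Dcn*, which averaged 7919 at 18 months and 9266 at 30 months, against 9919 at 6 months. At 30 months its arrays overlapped with 6 months. *Thy1* overlapped at both ages, with means of 233 and 209 against 229. The means of the other measured genes of the list were lower at both ages. The nerve and Schwann cell list was also lower without overlap, at 2769 to 3019 at 18 months and 2719 to 2996 at 30 months, against 3088 to 3651 at 6 months. Most of that sum was *Pmp22*, which averaged 1976 at 18 months and 1912 at 30 months, against 2369 at 6 months. The means of *S100b*, *Nefm* and *Nefh* were higher at 30 months than at 6 months, and those of the other measured genes of the list were lower. At 30 months alone, the immune list was higher without overlap, at 1336 to 1846 against 1085 to 1233 at 6 months. The mucosal list was lower without overlap at that age, at 695 to 896 against 907 to 1308.5. So was the cartilage list, at 92.7 to 103 against 132 to 153.5, a sum of values that all lay below the filter. In it *Comp* averaged 40.9 at 30 months, against 78.2 at 6 months. The means of *Col2a1* and *Acan* were also lower at 30 months, and those of *Col9a1* and *Col11a1* were higher. The lists for adipocytes, smooth muscle and endothelium, thyroid and blood overlapped with 6 months at both ages. The part of these shifts in the results on myosin was not tested. Median signals ran from 104 to 125 over the arrays, and those of the older ages all lay below those of 6 months. They were 122.2, 124.8 and 120.1 on the 6-month arrays. At 18 months they were 115.7, 104.2 and 115.5, and at 30 months 110.7, 104.8 and 112.2. The cause of this difference between ages was not tested.

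No member passed the threshold at any age. Ages were compared with limma on 5244 probe sets, with p-values adjusted by Benjamini and Hochberg over all of them at 0.05. At 18 against 6 months, 0 of 14 member probe sets passed, where 0.0763% of all tested probe sets did. At 30 against 6 months, 0 of 14 passed, where 0.324% of all did, and at 30 against 18 months 0 of 14, where 0.0191% did. In the F-test for any difference among ages, 0 of 14 passed, where 0.267% did. At an unadjusted p under 0.05, 4 members were found at 18 against 6 months (8.62% of all probe sets) and 5 at 30 against 6 months (12.9% of all). At 30 against 18 months there was 1 (3.2% of all), and in the F-test there were 4 (8.92% of all). With an intensity trend and a robust prior in limma, 1 member passed at 18 against 6 months and 1 at 30 against 6 months. No member is therefore said to have risen or fallen, and the values follow.

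By the values alone, the arrays of both ages did not overlap in 4 of 14 probe sets that were higher at 18 months than at 6 months (5.32% of all probe sets). These belonged to *Myh2*, *Myh7* with both its probe sets, and *Myh1*. At 30 months, 6 of 14 were higher without overlap (7.4% of all), and they added a pair of *Myh6* probe sets. The only probe set that was lower without overlap was K03468_s_at of *Myh3*, at 18 months (8.35% of all) and at 30 months (14.8% of all). At 30 against 18 months 1 was higher without overlap (3.18% of all) and 0 were lower (4.18% of all). Counting only ratios of means over 1.7, the size the series' design text uses, 1 member was higher without overlap at 18 months (0.553% of all) and 2 at 30 months (0.725% of all), X15939_i_at of *Myh7* at both and rc_AI104924_f_at of *Myh6* at 30 months. The 14 probe sets come from 8 genes, and some share sequence, so they do not count as independent. Their median log2 change was 0.17 at 18 months and 0.19 at 30 months against 6 months, where the median over all tested probe sets was -0.04 and -0.05. At 30 against 18 months the member median was 0.0010, against -0.02 over all.

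**Figure D1:**
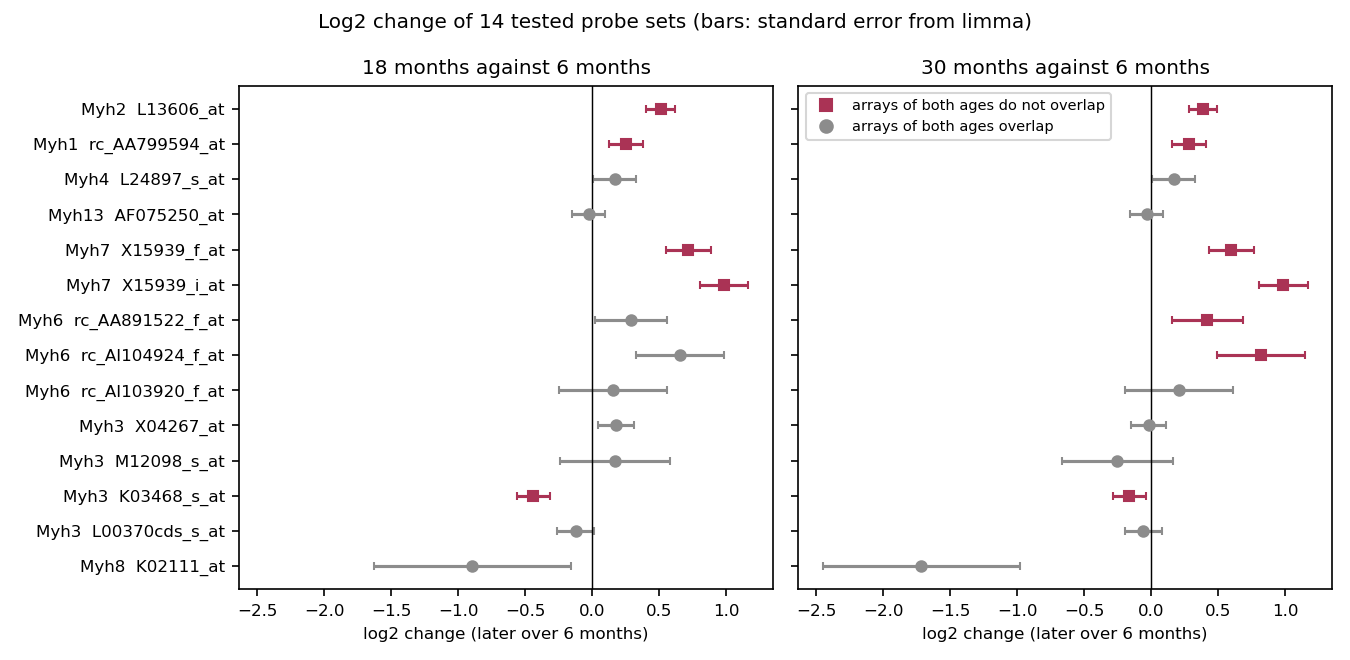
Log2 change of the 14 tested myosin heavy chain probe sets at 18 and at 30 months against 6 months (x axis, log2 of the later age over 6 months; bars are standard errors from limma). Squares mark probe sets whose arrays of both ages do not overlap: *Myh2*, *Myh1* and both *Myh7* probe sets lie to the right of 0 in both panels.

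Among the adult fast chains, *Myh2* (2A) read higher on every array of the older ages than on any array of 6 months. Its signal was 9770.2, 9279.7 and 9279.8 on the 6-month arrays, 13563, 12718 and 14173 on the 18-month arrays, and 11921, 11745 and 13460.1 on the 30-month arrays. The groups of the older ages thus did not overlap with 6 months, and the coefficient of variation at 6 months was 3.0%. The ratio of means was 1.43 for 18 over 6 months (log2 change 0.51, SE 0.11, adjusted p = 0.220 by limma), and 1.31 for 30 over 6 months (log2 change 0.39, SE 0.11, adjusted p = 0.258 by limma). The means were 9443 ± 283 (6 months), 13485 ± 731 (18 months) and 12375 ± 944 (30 months; SD, n = 3 arrays each). The arrays of 18 and 30 months overlapped. S68736_at, a probe set annotated to *Myh2*, *Myh1* and *Myh8* together and so no member, overlapped between all ages. Its log2 changes against 6 months were -0.07 at 18 months and -0.11 at 30 months (SE 0.11 each). Signals of RNA from whole muscle cannot tell more fibres of a type from more RNA per fibre.

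*Myh1*, the 2X chain, had a weak signal with the same order of the older ages against the baseline. It read 264, 267 and 227 on the 6-month arrays, 328, 289 and 304 on the 18-month arrays, and 271, 318 and 360.2 on the 30-month arrays. The lowest array of each older age exceeded the highest of 6 months, by a small margin at 30 months. The log2 change was 0.25 at 18 months (SE 0.13) and 0.28 at 30 months (SE 0.13), with adjusted p of 0.614 and 0.388 by limma.

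*Myh4*, the 2B chain, read 19162.5, 16282 and 16064.5 on the 6-month arrays, 16598, 17656 and 24295 on the 18-month arrays, and 17902, 18800.1 and 21133.5 on the 30-month arrays. The ages overlapped, and replicate 3 of 18 months stood well above the other arrays. The log2 change was 0.17 at 18 months (SE 0.16, adjusted p = 0.784 by limma) and 0.17 at 30 months (SE 0.16, adjusted p = 0.672 by limma). Without that array the log2 change at 18 months was 0.0004013, and after quantile normalization it was 0.003445 at 18 months and 0.008637 at 30 months.

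*Myh13*, the extraocular chain, read 12963, 10117 and 11102 on the 6-month arrays, 11144, 10791 and 11453 on the 18-month arrays, and 10228, 11467 and 11583.5 on the 30-month arrays. The ages overlapped throughout, and the means of the older ages, 11129 ± 331 at 18 months and 11093 ± 752 at 30 months, stood close to 11394 ± 1445 at 6 months (SD, n = 3 arrays each). The log2 change was -0.03 at 18 months and -0.03 at 30 months (SE 0.12 each), with adjusted p of 0.953 and 0.935 by limma. Without replicate 1 of 6 months these values were 0.07 and 0.06, and without replicate 1 of 30 months the value at 30 months was 0.02.

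**Figure D2:**
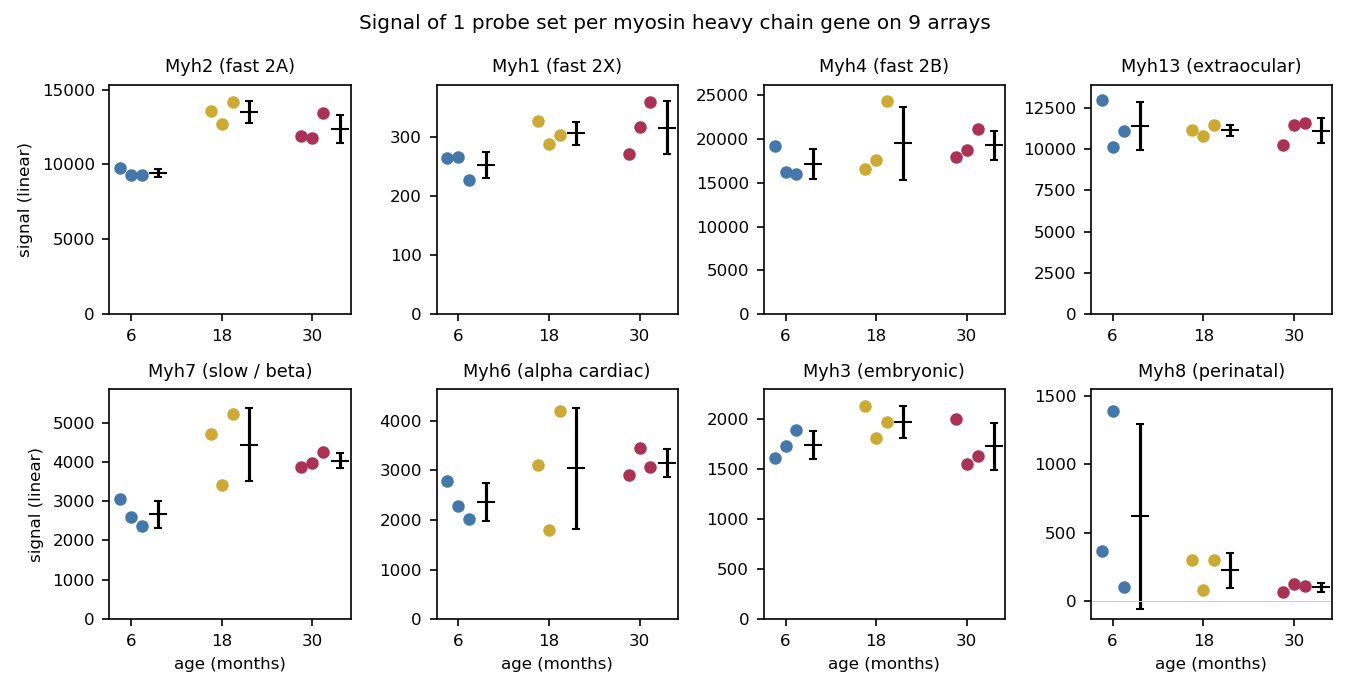
Signal (linear, y axis from 0) of the strongest probe set of each of the 8 genes on the 9 arrays, by age in months. Points are arrays, replicates 1 to 3 from left, and the bar beside them is the mean with its SD (n = 3): the 6 older arrays of *Myh2* and of *Myh7* lie above those of 6 months, those of *Myh13* do not, and *Myh8* has 1 high array at 6 months.

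The slow chain gene *Myh7* was represented by a pair of probe sets built on the same sequence record, X15939, so they are not separate evidence. On this platform the suffix _f_at marks probes shared within a sequence family, and _i_at marks a set with fewer probes than usual. The stronger probe set, X15939_f_at, read 3044, 2588 and 2357 on the 6-month arrays, 4699, 3417 and 5207 on the 18-month arrays, and 3874, 3967 and 4249 on the 30-month arrays. The other, X15939_i_at, read 655, 627 and 704 on the 6-month arrays, 1252, 1039.9 and 1840.3 on the 18-month arrays, and 1369, 1314 and 1342 on the 30-month arrays. In both, every older array lay above every array of 6 months. At 18 months the arrays were spread widely, with a coefficient of variation of 30.1% in X15939_i_at, while at 30 months it was 2.04%.

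X15939_i_at had the largest log2 change of the 14 members in the upward direction. Its ratio of means was 2.08 for 18 over 6 months (log2 change 0.98, SE 0.18, adjusted p = 0.133 by limma) and 2.03 for 30 over 6 months (log2 change 0.99, SE 0.18, adjusted p = 0.0849 by limma). Over the alternatives at 30 months its adjusted p ran from 0.0222 to 0.271, and it passed in 5 of 16: with a pseudocount 4 times as large, with the upper 40% of probe sets, with the intensity trend, and without replicate 2 or replicate 3 of 18 months. Without replicate 3 of 18 months, its log2 change at 18 months was 0.76. For X15939_f_at the ratio of means was 1.67 at 18 months (log2 change 0.72, SE 0.17, adjusted p = 0.264 by limma) and 1.51 at 30 months (log2 change 0.60, SE 0.17, adjusted p = 0.258 by limma). Between 30 and 18 months the arrays overlapped in both probe sets, with log2 changes of -0.12 for X15939_f_at and 0.0026 for X15939_i_at.

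*Myh6*, the α cardiac chain, adjoins *Myh7* and is similar to it in sequence, and all 3 of its probe sets carry the suffix _f_at. How far they also bind *Myh7* RNA was not tested. The strongest, rc_AA891522_f_at, read 2784, 2283 and 2015 on the 6-month arrays, 3119.5, 1789.9 and 4209 on the 18-month arrays, and 2914, 3460.3 and 3073 on the 30-month arrays. The 30-month arrays lay above those of 6 months, and those of 18 months held the lowest and the highest value of the 9 arrays. Its log2 change was 0.42 at 30 months (SE 0.27, adjusted p = 0.515 by limma) and 0.29 at 18 months, where it was 0.01 without replicate 3 of 18 months.

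The probe set rc_AI104924_f_at of *Myh6* read 524, 585 and 369.6 on the 6-month arrays, 607, 568 and 1371 on the 18-month arrays, and 636, 1014 and 1054.5 on the 30-month arrays. Its ratio of means was 1.83 for 30 over 6 months (log2 change 0.82, SE 0.33, adjusted p = 0.353 by limma). At 18 months the log2 change was 0.66, and 0.26 when replicate 3 of 18 months was left out. The weakest, rc_AI103920_f_at, ran from 126 to 430.3 over all arrays with overlap at every age. Of 6 measured markers of heart muscle, 3 passed the signal filter: *Myh6* itself, the atrial light chain gene *Myl7* with a mean signal of 219 over all arrays, and the cardiac troponin I gene *Tnni3* with 102. The natriuretic peptide genes *Nppa* and *Nppb* and the release channel gene *Ryr2* did not pass. The summed signal of the 6 was 2200 to 4736 at 18 months and 3287 to 3909 at 30 months, against 2499 to 3285 at 6 months. *Myh6* itself made up most of that sum, so the sum is no separate measure of heart muscle. *Myl7* averaged 199 at 30 months, against 235 at 6 months, and *Tnni3* 85.2, against 125. The mean of *Ryr2* was also lower at 30 months, and those of *Nppa* and *Nppb* were higher. The part of heart muscle RNA in the *Myh6* values was not tested.

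The array probe sets measure no microRNA, but the introns of these genes are known to carry some. RefSeq places rno-miR-208b inside *Myh7* and rno-miR-208a inside *Myh6*, each on the strand of its host. Their 3p sequences are shown because *Myh7* and *Myh6* held the largest upward values, with the seed, bases 2 to 8, in capitals.
rno-miR-208b-3p: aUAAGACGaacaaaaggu
rno-miR-208a-3p: aUAAGACGagcaaaaagc
Both share the same seed. They lie at chr15:32421648-32421665 and chr15:32395568-32395585 on the minus strand of GRCr8.

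The developmental chains gave no common picture. *Myh8*, the perinatal chain, read 364, 1388 and 103 on the 6-month arrays, 301, 76.6 and 296 on the 18-month arrays, and 64.5, 123 and 111 on the 30-month arrays. Replicate 2 of 6 months was far above every other array, and the coefficient of variation at that age was 109.8%. The log2 change was -1.72 at 30 months (SE 0.74, adjusted p = 0.371 by limma) and -0.89 at 18 months (adjusted p = 0.746 by limma). Without replicate 2 of 6 months it was -0.84 at 30 months and -0.02 at 18 months.

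*Myh3*, the embryonic chain, had 5 probe sets that did not follow each other. The strongest, X04267_at, read 1609.7, 1725 and 1885 on the 6-month arrays, 2133, 1812 and 1968 on the 18-month arrays, and 1995.5, 1553 and 1628.5 on the 30-month arrays, with overlap between all ages. Its log2 change was 0.18 at 18 months and -0.02 at 30 months (SE 0.13 each). K03468_s_at read 158, 157 and 146 on the 6-month arrays, 86.5, 114 and 116 on the 18-month arrays, and 123, 144 and 135 on the 30-month arrays. It was lower without overlap at 18 months (log2 change -0.44, SE 0.12, adjusted p = 0.431 by limma), and at 30 months its highest array still fell just short of the lowest of 6 months (log2 change -0.16, adjusted p = 0.583 by limma). M12098_s_at ran from 96.5 to 369.8, K03467_s_at from 22.0 to 137 and L00370cds_s_at from 60.3 to 85.8, each with overlap between all ages.

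**Figure D3:**
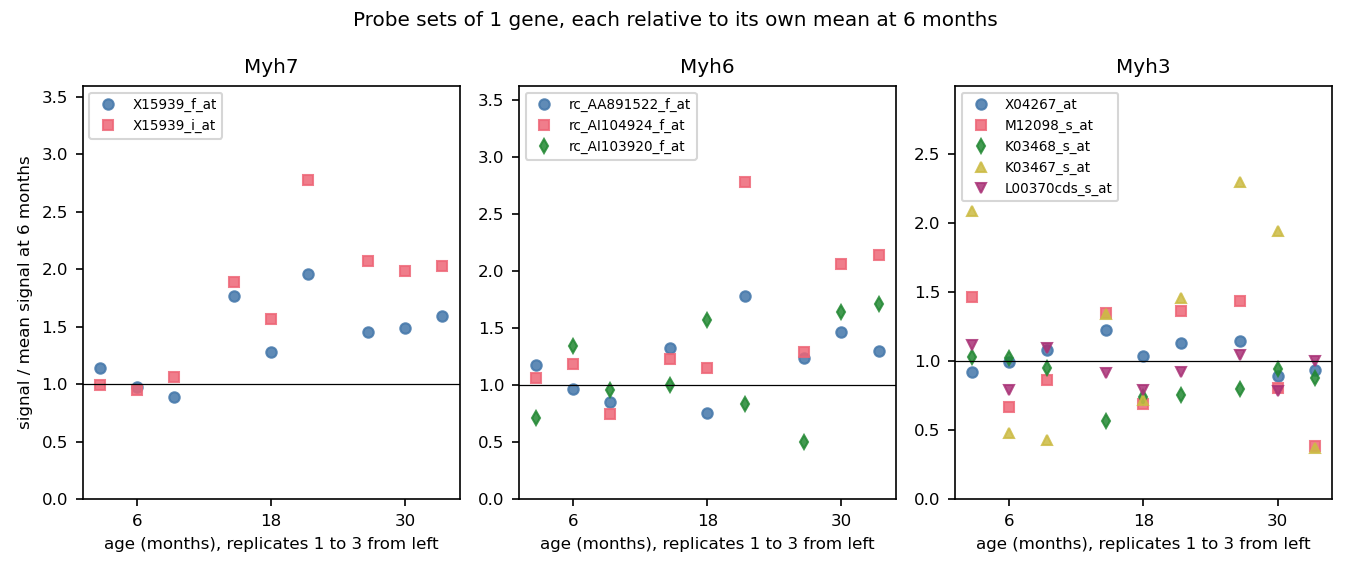
Signal of each probe set of *Myh7*, *Myh6* and *Myh3* divided by its own mean at 6 months (y axis, ratio), for the 9 arrays in order of age in months. Both *Myh7* probe sets lie above 1 on all older arrays, whereas the *Myh3* probe sets scatter on either side of 1.

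The share of each gene in the summed signal of all 8, taking the strongest probe set of each, was computed on every array. A share of signal depends on how well each probe set binds, so shares were compared across ages within a gene, and the genes were not ranked against each other. The summed signal was 45642 ± 3768 at 6 months, 54113 ± 6952 at 18 months and 52067 ± 3262 at 30 months (SD, n = 3 arrays each). The share of *Myh2* was 19.6%, 21.1% and 21.6% on the 6-month arrays, 26.1%, 26.2% and 22.9% on the 18-month arrays, and 24.2%, 22.8% and 24.2% on the 30-month arrays. That of *Myh7* was 6.09%, 5.89% and 5.48% on the 6-month arrays, 9.06%, 7.04% and 8.41% on the 18-month arrays, and 7.88%, 7.71% and 7.64% on the 30-month arrays. Both shares were higher at each older age without overlap, by 4.33 and 3.02 percentage points for *Myh2* and by 2.35 and 1.92 percentage points for *Myh7* at 18 and 30 months.

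The share of *Myh13* went the other way. It was 25.9%, 23.0% and 25.8% on the 6-month arrays, 21.5%, 22.2% and 18.5% on the 18-month arrays, and 20.8%, 22.3% and 20.8% on the 30-month arrays. All older arrays were below all arrays of 6 months, although its signal itself overlapped between ages. Shares sum to 100% on each array, so a higher share of some genes lowers that of the others.
The share of *Myh4* averaged 35.9% ± 3.65 at 18 months and 37.0% ± 0.89 at 30 months, against 37.6% ± 0.68 at 6 months (SD, n = 3 arrays each), with overlap. *Myh6* averaged 5.50% ± 1.62 at 18 months and 6.06% ± 0.61 at 30 months, against 5.15% ± 0.45 at 6 months, and *Myh3* 3.67% ± 0.47 and 3.34% ± 0.63, against 3.84% ± 0.58, again with overlap. *Myh1* stayed between 0.49% and 0.65% on all arrays. *Myh8* had at most 0.58% on the older arrays and reached 3.16% on replicate 2 of 6 months. Its share, unlike its signal, did not overlap between 30 and 6 months, but this was close to a tie. The highest share at 30 months was 0.2393%, and the lowest at 6 months was 0.2400%. No test was made on shares, which are values over the members.

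**Figure D4:**
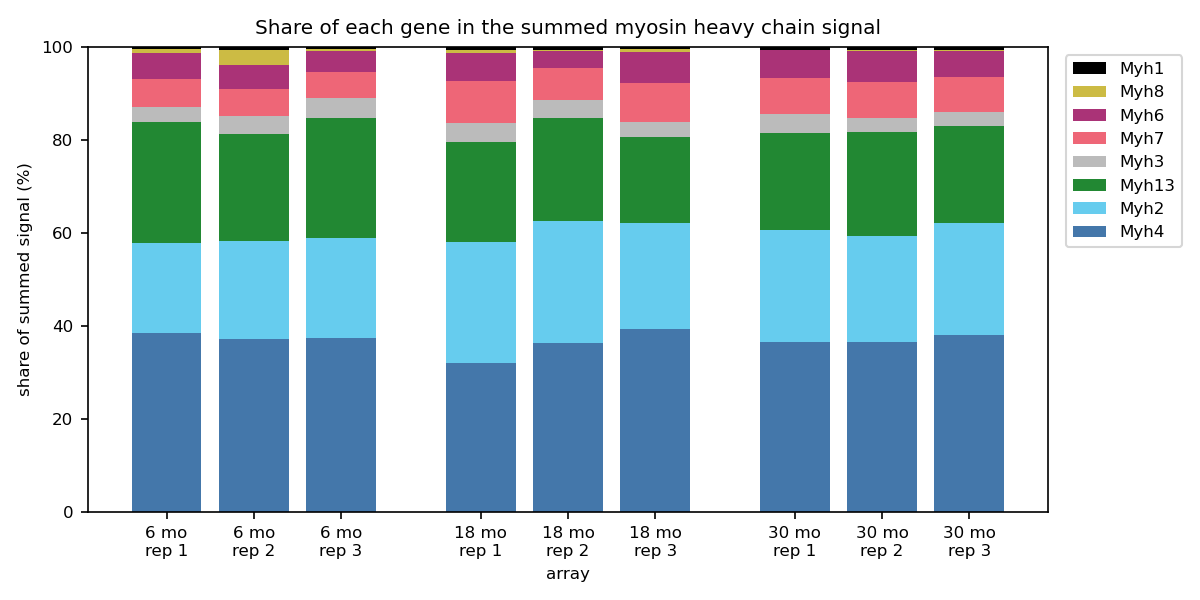
Share of each of the 8 genes in their summed signal (y axis, percent) on each of the 9 arrays, 3 per age. The *Myh2* and *Myh7* segments are taller and the *Myh13* segment is shorter on the arrays of 18 and 30 months than on those of 6 months.

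Genes that work with the heavy chains were described as lists, each gene by its strongest probe set. None of their tested genes passed the limma threshold in any of the 3 comparisons, and the medians stand beside a median over 3163 tested genes of -0.04 at 18 months and -0.06 at 30 months. In the list of light chains and other thick filament genes 13 of 19 were tested. The fast regulatory light chain gene was listed under a symbol other than the annotation's *Myl11*, so it was measured but not counted among them. Their median log2 change was 0.02 at 18 months and 0.03 at 30 months, with 7 of 13 above 0 at each age. *Myl1*, a fast essential light chain, averaged 15001 at 18 months and 14234 at 30 months, against 13978 at 6 months. *Mybpc1*, the slow myosin-binding protein C, averaged 12970 at 18 months and 11685 at 30 months, against 12577 at 6 months.

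The fast thin filament and calcium handling list had 10 of 12 genes tested and 9 of 10 above 0 at both older ages, with medians of 0.16 at 18 months and 0.18 at 30 months. Of all tested probe sets, 42.3% were above 0 at 18 months and 41.2% at 30 months. Skeletal actin, *Acta1*, had log2 changes of 0.23 and 0.24, and the tropomyosin gene *Tpm1* of 0.26 and 0.28. The slow counterpart list had 7 of 12 genes tested, with 4 of 7 above 0 at 18 months and 5 of 7 at 30 months, and medians of 0.09 and 0.05. In it the slow calcium pump gene *Atp2a2* had log2 changes of 0.19 and 0.11, and the Z-disc gene *Actn2* of 0.50 and 0.49, with adjusted p of 0.471 and 0.313 by limma.

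In the list of developmental and denervation genes 15 of 20 were tested, with medians of 0.01 at 18 months and 0.04 at 30 months. Cardiac actin, *Actc1*, had log2 changes of 0.25 and 0.27, and the imprinted transcript *H19* of 0.28 and 0.39. The *Actc1* probe set had a mean signal of 30257 over all arrays, near the 33306 of skeletal actin, *Acta1*. How far it also binds *Acta1* RNA was not tested. The fibre type regulators, 13 of 35 tested, had medians of -0.01 and 0.01. The calcineurin subunit gene *Ppp3ca* had log2 changes of -0.13 and -0.08 in it, and the inhibitor gene *Id1* of 0.46 and 0.39. Of the chaperone and turnover list 4 of 11 genes were tested, with medians of 0.18 and 0.18. The small heat shock gene *Cryab* had log2 changes of 0.43 and 0.39, and *Hsp90ab1* of 0.10 and 0.21. The other myosins, 4 of 19 tested, had medians of 0.02 and -0.0029. Among them *Myo1c* had log2 changes of -0.09 and 0.01, and the smooth muscle chain *Myh11* of 0.12 and -0.02.

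**Figure D5:**
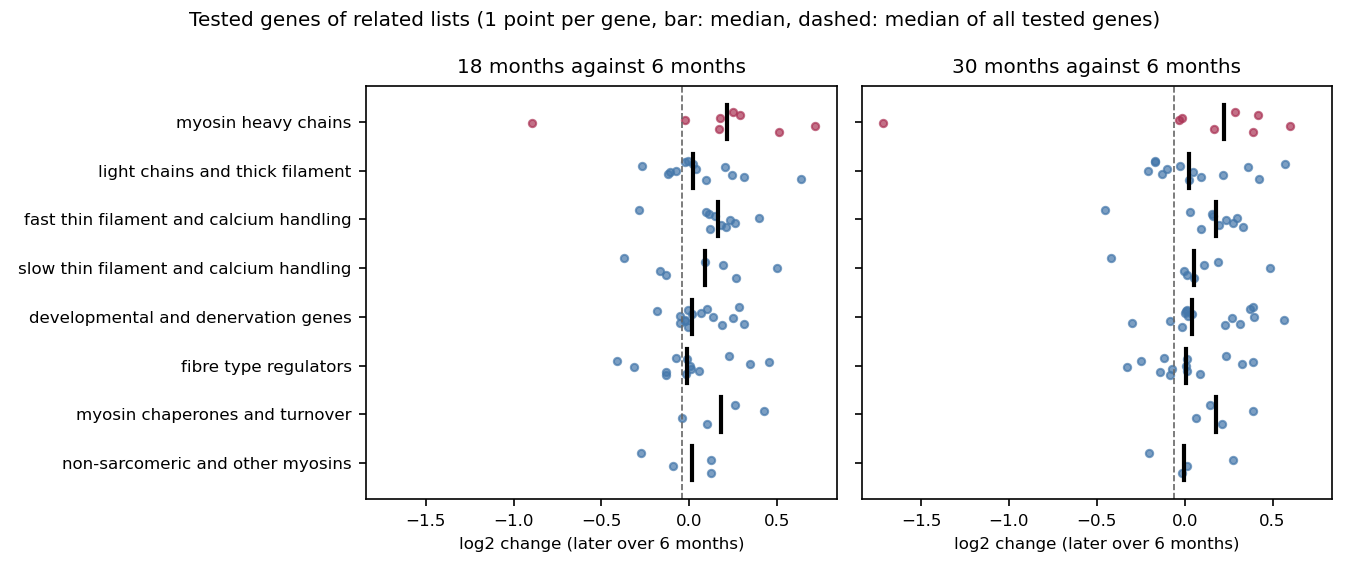
Log2 change at 18 and at 30 months against 6 months (x axis) of the tested genes of each list, 1 point per gene; black bars are list medians and the dashed line is the median of all tested genes. The fast thin filament list lies mostly to the right of 0, the fibre type regulators lie on either side of it.

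Genes whose course over the 9 arrays was most like that of a member were found by Pearson's r of log2(signal + 32) among 3155 genes, and the top 3 are given per member. Being picked as the highest of so many, and sharing ages and scaling with the member, these values carry no p. For *Myh2* they were *Atp2a1*, the fast calcium pump gene (r = 0.96), the fatty acid binding protein gene *Fabp3* (0.95) and *Rab3b* (0.94). For *Myh7* they were the muscle cytochrome oxidase subunit gene *Cox6a2* (0.94), *Atp2a1* (0.93) and the mitochondrial phosphate carrier gene *Slc25a3* (0.93). *Atp2a1* thus stood near both a fast and a slow chain. *Myh4* was closest to *Myl11*, the fast regulatory light chain gene (0.95), then *Cyth2* (0.91) and *Igf2r* (0.89). *Myh6* was closest to parvalbumin, *Pvalb* (0.93), *Nnat* (0.90) and the fast troponin T gene *Tnnt3* (0.89).

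*Myh1* was closest to *Pts* (0.92), *Vps39* (0.91) and *Cebpb* (0.90). *Myh13* was closest to *Ergic1* (0.93), *Hdac6* (0.91) and *Isl1* (0.89). *Myh8* was closest to *Ddost* (0.925), *Sem1* (0.92) and *Car5a* (0.89), and its course rests on replicate 2 of 6 months. *Myh3* was closest to *Prm2* (0.89), *Gne* (0.86) and *Slc4a3* (0.84).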

How the data were processed

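The deposited values are signal intensity per probe set, which the authors computed with Affymetrix Microarray Suite 5.0, per the submitters' processing notes and the series' design text. They are linear, from 0.1 to 48487.6, and the 2% trimmed mean was 500.868 to 500.968 on every array, so the authors' scaling was kept. The design text speaks of present and absent calls, which were not used here. The labels name a pair of dyes, and the values hold 1 signal per array. The scaling target and genome build are not stated in what was used here. After leaving out 59 control probe sets, log2(signal + 32) was fitted with R 4.3.3 and limma 3.58.1 (linear fit with moderated variance; 6 residual and 3.69 prior degrees of freedom), with 1 mean per age, 3 two-sided contrasts and an F-test, on 5244 probe sets past the signal filter. P-values were adjusted by Benjamini and Hochberg over all 5244. Precision is limited by having 3 arrays an age. The fit was tested on simulated data.

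Genes were named by the platform annotation, and sequences come from RefSeq tables of GRCr8. Named genes are all members, the 3 genes most like each member and, since no list had a gene past the threshold, the 2 of each list with the strongest mean signal; marker genes, and genes outside this in the closing section, are named beside their lists or marked. The members and lists were chosen with earlier results of these data known. Alternatives were a pseudocount of 8 or 4 times the main one, no filter or the upper 40%, quantile normalization, replicate number as a block, an intensity trend, and leaving out each array; for shares also the sum or mean of a gene's probe sets and a background subtraction.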

Additional observations from a re-analysis of the deposited data

Results flagged for a closer look

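A probe set outside the comparisons, X15939_r_at, carries the symbols of both *Myh7* and *Myh6* in the annotation and so is no member. It lay above its level at 6 months on all 6 older arrays, with 962, 733 and 1382 at 18 months and 986, 935 and 873 at 30 months, against 633, 601 and 506 at 6 months. The log2 change was 0.75 at 18 months (SE 0.20, adjusted p = 0.430 by limma) and 0.66 at 30 months (SE 0.20, adjusted p = 0.284 by limma), past the threshold at neither age. It is built on the same sequence record as the *Myh7* probe sets.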

How the results depend on the processing

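No call of a member was lost, since none was made. Over 222 repeats of the members' values per comparison, 221 kept their side of the threshold at 18 against 6 months, 217 at 30 against 6 months and 222 at 30 against 18 months. The larger pseudocount was 4 times the main one. With limma's intensity trend 1 member passed at 18 against 6 months (*Myh2*, adjusted p = 0.0373). At 30 against 6 months 1 passed (X15939_i_at of *Myh7*) with the larger pseudocount, with the upper 40% and with the trend, and 0 to 1 when an array was left out. In the F-test among ages 1 passed with the larger pseudocount and 2 with the trend, and 0 to 1 without an array. Over all probe sets, the calls at 18 against 6 months were 4, and 8 with the larger pseudocount or with the trend. They ran from 0 to 5 without 1 array: 0 without replicate 2 of 6 months or replicate 3 of 18 months, 2 without replicate 1 of 6 months or replicate 2 of 18 months. At 30 against 6 months they were 17, and 0 to 20 without 1 array: 0 without replicate 2 of 6 months, or replicate 2 or 3 of 30 months, 3 without replicate 1 and 2 without replicate 3 of 6 months, then 10 when replicate 1 of 30 months was dropped. At 30 against 18 months there was 1 call. It was 0 with the larger pseudocount, the upper 40% or the trend, 4 without a filter, and 0 to 2 without 1 array. The F-test made 14 calls, 6 with a pseudocount of 8 or without a filter, 9 after quantile normalization and 0 to 11 without 1 array. At an unadjusted p under 0.05, limma fits without 1 array counted 338 to 586 probe sets at 18 months, 411 to 757 at 30 months, 152 to 408 between 18 and 30 months, and 338 to 604 in the F-test. Same-numbered arrays of different ages had correlations of deviations from -0.021 to 0.261, and 4 of 9 exceeded 0.1. Those of arrays with different numbers ran from -0.205 to 0.149, and 2 of 18 exceeded 0.1. These values do not settle whether same-numbered arrays belong together. The sample titles give only a replicate number, and the main fit did not take the numbers as pairs. With replicate number as a block there were 6 calls at 18 months, 11 at 30 months, 0 between 18 and 30 months and 4 in the F-test, and 0 of them were members. The higher share of *Myh7* was 3.13 percentage points at 18 months with probe sets of a gene summed. At 30 months it was 2.77 with probe sets summed and 1.68 with their mean, against 1.92. After quantile normalization the *Myh4* share differed by -2.51 points at 30 months, against -0.592. That of *Myh1* differed by 0.0817 points at 18 months, against 0.0177, and by 0.114 at 30 months, against 0.0505. Where values moved, the cause was not tested.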

Other observations

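Some partners of the heavy chains, chosen after their values were seen, lay apart from 6 months. *Myl2*, the slow regulatory light chain gene, averaged 12020.3 at 18 months and 10349 at 30 months, against 7784 at 6 months, with log2 changes of 0.64 (adjusted p = 0.288 by limma, no overlap) and 0.42 (adjusted p = 0.329 by limma, with overlap). *Mybpc2*, the fast myosin-binding protein C gene, averaged 6474 at 18 months and 7195 at 30 months, against 5617 at 6 months, without overlap at either age (log2 changes 0.20 and 0.36). *Csrp3*, a muscle LIM protein gene, lay below 6 months without overlap, at 1206 and 1168 against 1558 (log2 changes -0.37 and -0.42). None of these passed the threshold.

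A probe set that names *Myh2*, *Myh1* and *Myh8* together, S68736_at, read 7836.5, 8144 and 8899 at 18 months and 8190.0, 7929 and 8077 at 30 months, against 9604, 8417 and 8176 at 6 months. Its log2 changes were -0.07 and -0.11 (SE 0.11 each), below 0, where that of the *Myh2* probe set was 0.51 and 0.39.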
